A study of Canis lupus familiaris with 6 samples.

Results

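The 10 genes described here set the entry into the cell cycle from G1: the D-type cyclins CCND1, CCND2 and CCND3, their kinases CDK4 and CDK6, the E-type cyclins CCNE1 and CCNE2, the kinase inhibitor CDKN1B, the unconventional cyclin CCNG2 and the cyclin-like kinase activator SPDYA. They were read by gene symbol from a table of 35993 genes, each symbol matched 1 row, and all 10 were among the 14708 genes tested. CCNG2 and SPDYA were chosen by the same gas and CAMP libraries, since the study drew them in its heatmap of regulated genes, and the other 8 were proposed as G1 genes with results of these libraries known. The values that compare the groups are therefore a description, and CCNG2 and SPDYA are given without p-values; where a count of calls includes them, nothing is read from it.

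RNA-Seq was performed on CPEK cells, a wild-type canine progenitor epidermal keratinocyte line grown in DMEM with 10% fetal bovine serum. One group of 3 libraries came from cells exposed directly to cold atmospheric microwave plasma (CAMP), an argon plasma, for 30 s (dCAMP), and the control group of 3 libraries came from cells exposed to the gas alone (gas). In both groups the medium was replaced after 15 min and RNA was collected 24 h later. All libraries are of 1 cell line, and the labels do not say whether the libraries of a group came from separate cultures, so p-values measure the spread between these libraries only.

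In a cell leaving quiescence, mitogen signals raise the D-type cyclins, which bind CDK4 or CDK6 and phosphorylate the retinoblastoma protein. This releases E2F factors, which switch on cyclin E and the genes of DNA replication, and cyclin E with CDK2 completes the passage into S phase. The inhibitor p27, encoded by CDKN1B, holds cyclin E with CDK2 back, cyclin G2 is induced in cells that stop dividing and is a known target of FOXO factors, and Speedy A binds and activates CDK2 without a cyclin. In the epidermis, basal keratinocytes leave this cycle when they differentiate and re-enter it around a wound.

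The libraries held 43084921 to 54082634 gene counts. Keratinocyte markers summed to 57846 to 69447 CPM (counts scaled to library size) with gas and 55267 to 58621 CPM after dCAMP, with KRT5 and KRT14 leading, while KRT1 was at 0. IVL, on the same list, had 1439, 917 and 636 CPM in gas 1, 2 and 3, and 1206, 855 and 1081 CPM in dCAMP 1, 2 and 3. KRT10 had 21.4, 34.3 and 33.2 CPM in gas and 30.0, 31.1 and 31.5 CPM in dCAMP. The summed levels were 6.60 to 7.02 (gas) and 6.51 to 7.23 CPM (dCAMP) for 10 fibroblast markers, 7.12 to 9.12 and 8.86 to 11.4 for 7 melanocyte markers, 5.33 to 7.88 and 6.46 to 8.61 for 10 immune markers, and 15.7 to 18.4 and 18.8 to 24.6 for 6 endothelial markers. DCN, LUM, PDGFRB and FAP (fibroblast), TYR, TYRP1 and DCT (melanocyte), PTPRC, CD3E, CD4, CD8A, CSF1R and CD207 (immune) and PECAM1 (endothelial) were at 0 in every library. The endothelial sum was higher in every dCAMP library than in every gas library, and its part in the results was not tested. The gas libraries stood apart from each other. The median absolute difference in log2 CPM over the genes tested was 0.09 to 0.10 between dCAMP libraries, 0.23 to 0.42 between gas libraries, 0.47 to 0.50 between gas 1 and the dCAMP libraries, and 0.13 to 0.16 between gas 3 and the dCAMP libraries. Values without a library are therefore given where they differ most.

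Among the members, CCND2, CCNE2, CDK6, CCNG2 and SPDYA had higher mean levels in dCAMP-treated cells, CDK4, CCND3 and CDKN1B had lower ones, and CCND1 and CCNE1 differed by a log2 fold change of at most 0.13. The 8 members not drawn in the heatmap had log2 fold changes on both sides of 0, with a median of 0.083 beside 0.027 for all genes tested. Leaving out 1 library moved that median between −0.0060 (gas 2) and 0.13 (gas 1). With CCNG2 and SPDYA, which this contrast chose, the median was 0.32. With Benjamini-Hochberg adjustment in edgeR's quasi-likelihood test, 0 of those 8 genes had an adjusted p under 0.05, and 0% of all genes did. Of the 8, CCND2, CCNE2 and CDK4 had an unadjusted p under 0.05, in a table where 20.7% of all genes had one. CCNG2 alone was called at 2-fold or more and an unadjusted p below 0.05, a rule that called 0.959% of all genes as higher; since CCNG2 was chosen from this contrast, nothing is read from that count. Its fold was 2.11, that of SPDYA 2.29, and CCNE2 came next with 1.49. With DESeq2, 0 of the 8 had an adjusted p under 0.05 (1.48% of all genes) and the same 3 had an unadjusted one (17.3% of all genes). Without gas 3, CCND2, CCNE2, CDK4 and CDK6 of those 8 had an adjusted p under 0.05 in edgeR, in a fit where 33.1% of all genes did.

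The ranges of both groups in CPM were separate for 3 genes that were higher (CCND2, CCNE2 and CCNG2) and 3 that were lower (CDK4, CCND3 and CDKN1B). Over all genes tested, 19% did not overlap with higher levels and 20.9% with lower levels in dCAMP. With 3 libraries against 3, an exact permutation test of a single gene cannot go below 0.1. In bulk RNA, a lower level in each cell and fewer cells that express a gene cannot be told apart.

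**Figure D1:**
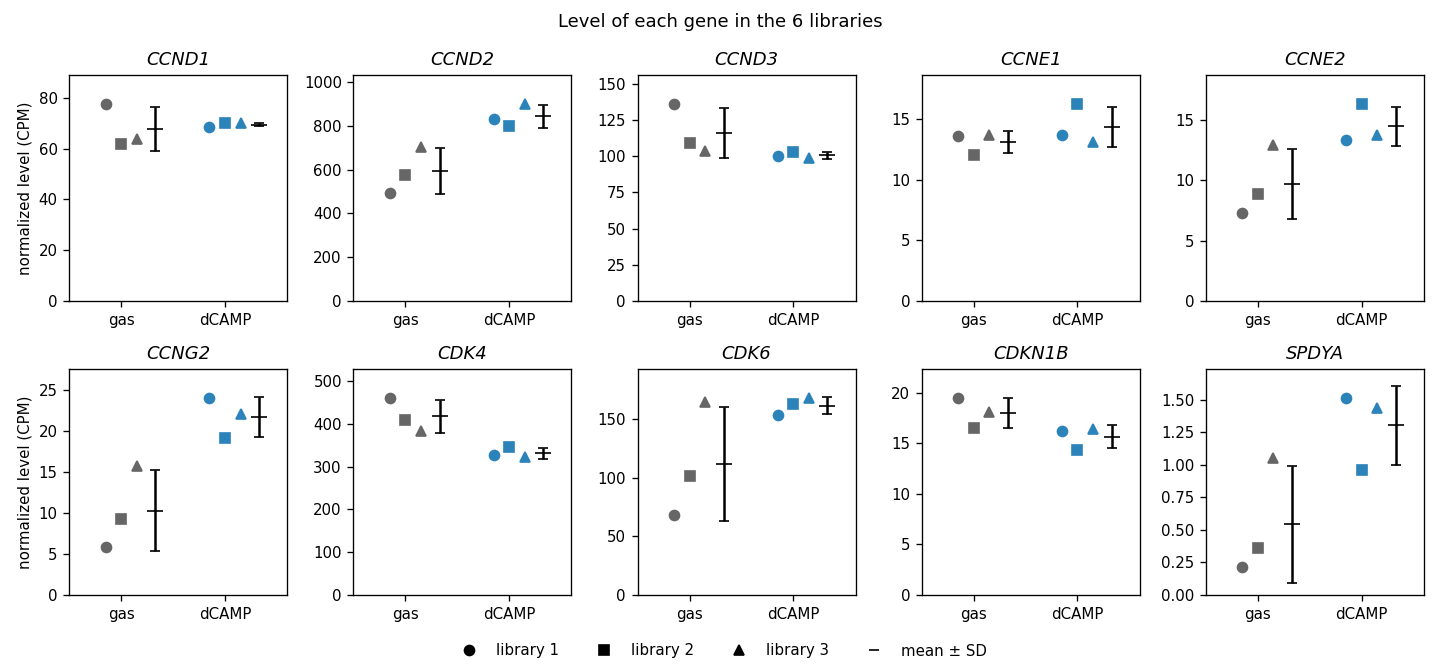
Normalized level (CPM, y axis from 0) of the 10 genes in gas (grey) and dCAMP (blue) libraries, with a symbol for each library number and the mean ± SD of 3 libraries in black. CCND2, CCNE2 and CCNG2 lie higher and CDK4 lies lower in all 3 dCAMP libraries, while for CDK6 gas 3 lies within the dCAMP libraries.

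CCND2 encodes cyclin D2, the D-type cyclin with the highest counts here. Its gene (ID 611782) lies on chromosome 27, 40563306 to 40593362 of CanFam3.1. It had 495, 575 and 704 CPM in gas libraries 1, 2 and 3, and 831, 799 and 898 CPM in dCAMP libraries 1, 2 and 3. Every dCAMP library was above every gas library, and gas 1 was the lowest. The mean went from 591 ± 105 to 843 ± 50.7 CPM (SD, n = 3 each), a log2 fold change (dCAMP over gas) of 0.51 ± 0.14 (SE; adjusted p = 0.221, edgeR). This became 0.38 when gas 1 was left out and 0.61 when gas 3 was, where the adjusted p was 0.0205. Without gas 3, 33.1% of all genes had an adjusted p under 0.05. Leaving out any other library gave adjusted p-values of up to 0.502.

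CCND3 encodes cyclin D3, which pairs with the same kinases. Its gene (ID 608847) is on chromosome 12, 10593786 to 10688304, and overlaps LOC111098258 and LOC111098259. The gas libraries had 136, 109 and 103 CPM, and the dCAMP libraries 100.0, 103 and 98.7 CPM. Gas 1 was the highest of the 6 libraries, and the other 2 gas libraries lay close to the dCAMP libraries. The log2 fold change was −0.21 (SE 0.12; edgeR adjusted p = 0.314) and −0.096 without gas 1, so the value was moved by more than 1.5 times by 1 library. On the FPKM scale, which scales fragments to transcript length and mapped reads, the groups overlapped, with 43.9 in gas 3 and 44.7 in dCAMP 2.

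CCND1 encodes cyclin D1, a target of mitogen, Wnt and YAP signalling in epithelia. Its gene (ID 449028) lies on chromosome 18, 48501905 to 48509684, and the transcript model counted has 885 bases, a multiple of 3 (coding length). It had 77.5, 61.8 and 63.9 CPM with gas, against 68.6, 70.0 and 70.0 CPM after dCAMP. The dCAMP values lay between those of gas 1 and gas 3. The log2 fold change of 0.038 (SE 0.11; edgeR adjusted p = 0.827) was 0.13 without gas 1 and −0.049 without gas 3.

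CDK4 is the kinase with the highest level of the group. Its gene (ID 481131) lies on chromosome 10, 1812864 to 1815815. It had 459, 410 and 382 CPM with gas, against 326, 346 and 321 CPM after dCAMP. All 3 dCAMP libraries were below all 3 gas libraries, and gas 3 was the nearest to them. The mean was 417 ± 39.0 CPM in gas and 331 ± 13.1 CPM in dCAMP (SD, n = 3 each), a log2 fold change (dCAMP over gas) of −0.33 ± 0.09 (SE; adjusted p = 0.221, edgeR). The fits without 1 library gave −0.44 to −0.28, with an adjusted p between 0.0223 (without gas 3) and 0.502. Without gas 3, 33.1% of all genes had an adjusted p under 0.05.

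CDK6, the second kinase of the D-type cyclins, had a higher mean in dCAMP. Its gene (ID 609920) spans chromosome 14, 18178352 to 18413869, and overlaps LOC102153512 and LOC111098749. The gas libraries had 68.5, 101 and 164 CPM, and the dCAMP libraries 153, 163 and 168 CPM. Gas 1 and gas 2 were below the dCAMP libraries and gas 3 was among them. The log2 fold change of 0.54 (SE 0.30, edgeR adjusted p = 0.300) was 0.27 without gas 1 and 0.88 without gas 3. The adjusted p was 0.0230 without gas 3, in a fit where 33.1% of all genes had one under 0.05. The highest adjusted p in the fits without 1 library was 0.509.

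CCNE1 and CCNE2 encode the E-type cyclins, the partners of CDK2. CCNE1 (ID 484610; chromosome 1, 121688622 to 121697533) had 13.6, 12.1 and 13.7 CPM with gas, against 13.7, 16.3 and 13.1 CPM after dCAMP. The groups overlapped, and the log2 fold change was 0.13 (SE 0.13; edgeR adjusted p = 0.501). It was 0.0006 without dCAMP 2, the highest library. CCNE2 (ID 487057; chromosome 29, 39534872 to 39551141) had 7.28, 8.85 and 12.9 CPM with gas, against 13.4, 16.3 and 13.7 CPM after dCAMP. The groups did not overlap, although gas 3 lay near dCAMP 1. Its log2 fold change was 0.58 (SE 0.23, edgeR adjusted p = 0.237), 0.39 without gas 1 and 0.79 without gas 3. The adjusted p was 0.0223 without gas 3, in a fit where 33.1% of all genes had one under 0.05.

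CDKN1B encodes the inhibitor p27. Its gene (ID 403429) lies on chromosome 27, 33609154 to 33613558. It had 19.5, 16.5 and 18.1 CPM with gas, against 16.2, 14.3 and 16.4 CPM after dCAMP. The groups were separated by less than 0.1 CPM, and in FPKM they overlapped, with 9.02 in gas 3 and 9.25 in dCAMP 3. The log2 fold change was −0.20 (SE 0.12; edgeR adjusted p = 0.308) and lay between −0.29 and −0.16 in the fits without 1 library.

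CCNG2 encodes cyclin G2. Its gene (ID 478442) lies on chromosome 32, 1719325 to 1727769. The gas libraries had 5.92, 9.27 and 15.7 CPM, from 274, 488 and 834 counts, and the dCAMP libraries 24.0, 19.2 and 22.1 CPM, from 1114, 824 and 998 counts. No gas library reached the lowest dCAMP library, and the gas libraries spread more widely than the dCAMP libraries. The mean was 10.3 ± 4.98 CPM in gas and 21.8 ± 2.42 CPM in dCAMP (SD, n = 3 each), a log2 fold change of 1.08; leaving out gas 1 gave 0.79 and leaving out gas 3 gave 1.47.

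SPDYA encodes Speedy A, and had the fewest counts of the 10 genes. Its gene (ID 100688090; chromosome 17, 22708202 to 22742855) overlaps TRMT61B. The library kit keeps the strand, and whether the counting used it is not given in the sources used here. It had 0.216, 0.361 and 1.06 CPM with gas, against 1.51, 0.956 and 1.44 CPM after dCAMP. Gas 3 was above dCAMP 2, so the groups overlapped. Gas 1 rests on 10 counts, with an exact 95% Poisson interval of 0.104 to 0.397 CPM, and gas 2 on 19 counts, with 0.217 to 0.563 CPM. The lowest dCAMP library, dCAMP 2, rests on 41 counts, with 0.686 to 1.30 CPM, and gas 3 on 56 counts, with 0.797 to 1.37 CPM. These intervals cover counting error only. The log2 fold change was 1.19, which was 0.83 without gas 1 and 1.97 without gas 3. The study also reported SPDYA mRNA as significantly higher after dCAMP by qRT-PCR, a measurement not used here.

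**Figure D2:**
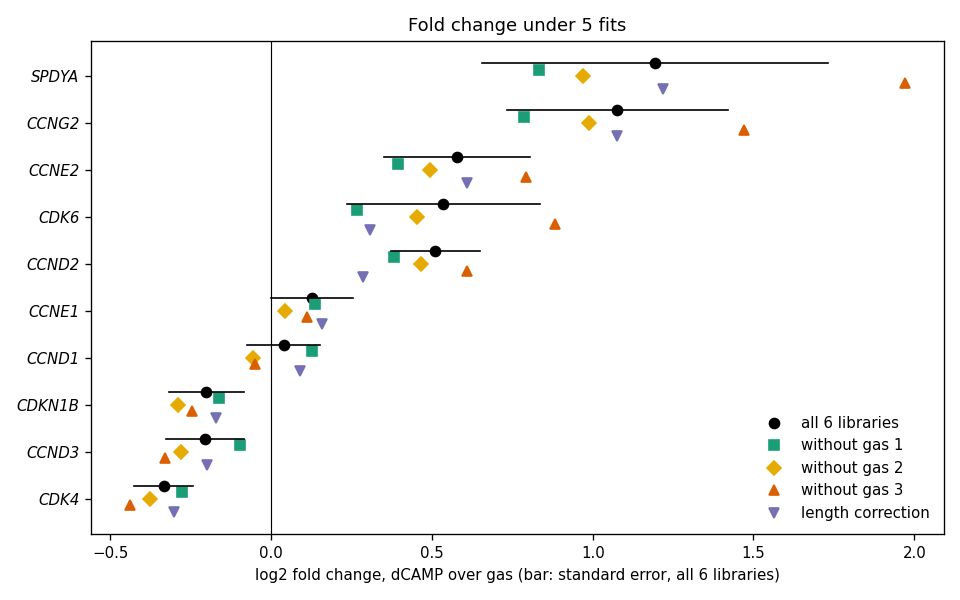
Log2 fold change (x axis) of dCAMP over gas for each gene with all 6 libraries (black, bar for the standard error), without gas 1, gas 2 or gas 3, and after a correction for transcript length. CCND1 lies on both sides of 0, and for CDK6 the values run from 0.27 without gas 1 to 0.88 without gas 3.

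Levels of different genes were compared per transcript length, in FPKM. In dCAMP-treated cells the order was CDK4 (201 ± 8.78 FPKM), CCND2 (112 ± 6.72), CCND1 (69.1 ± 1.18), CCND3 (43.4 ± 1.16), CDK6 (13.1 ± 0.648), CCNG2 (8.81 ± 0.931), CDKN1B (8.51 ± 0.952), CCNE2 (7.97 ± 0.928), CCNE1 (7.13 ± 0.857) and SPDYA (0.779 ± 0.228; SD, n = 3 libraries each). CCNG2, CDKN1B, CCNE2 and CCNE1 were neighbours whose ranges overlapped, and the other neighbours were separated. In the gas control CDK4 (255 ± 28.8 FPKM) again led and SPDYA (0.324 ± 0.271) was the lowest. CCND2 (79.0 ± 12.7) and CCND1 (67.5 ± 9.84) overlapped there, as did CDKN1B (10.4 ± 1.47) with CDK6 (8.98 ± 3.79) and CCNE2 (5.32 ± 1.51) with CCNG2 (4.16 ± 1.95). CCNG2 was the ninth in gas and the sixth in dCAMP.

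**Figure D3:**
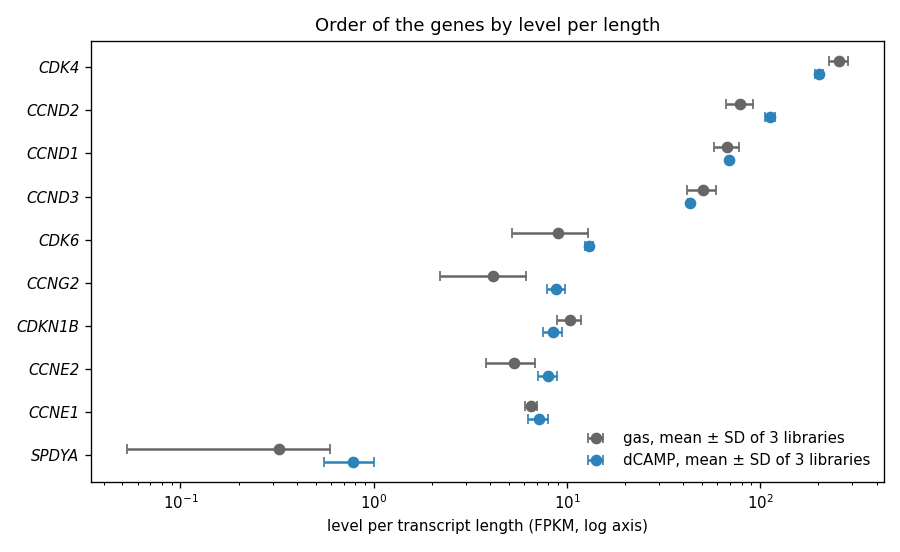
Level per transcript length (FPKM, log axis) of the 10 genes as mean ± SD of 3 gas (grey) and 3 dCAMP (blue) libraries, ordered by the dCAMP mean. CDK4 leads at 255 and 201 FPKM, the D-type cyclins follow, and SPDYA lies below 1 FPKM in both groups.

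The make-up of the D-type cyclins was described within each library, as a share of their summed FPKM. CCND2 made up 32.7, 41.4 and 46.5% with gas (libraries 1, 2 and 3), against 49.9, 48.3 and 51.7% after dCAMP. CCND1 had the largest share in gas 1 (38.1%), and CCND2 led in the other 5 libraries. The share of CCND3 was 29.2, 25.5 and 22.0% in gas and 19.4, 20.2 and 18.3% in dCAMP. The shares of CCND2 and CCND3 did not overlap between the groups, and gas 3 was in each case the gas library nearest to dCAMP. The sum of the 3 cyclins was 197 ± 11.4 FPKM in gas and 225 ± 6.38 FPKM in dCAMP (SD, n = 3 each). These shares set transcripts of 6585 (CCND2), 2035 (CCND3) and 885 bases (CCND1) beside each other. They were not corrected for the trend on transcript length given below.

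Of the summed FPKM of both kinases, CDK6 made up 1.95, 3.18 and 5.40% with gas, against 5.89, 5.90 and 6.49% after dCAMP. CDK4 was thus 50.4, 30.4 and 17.5 times the level of CDK6 in gas 1, 2 and 3, and 14.4 to 16.0 times in dCAMP. The sum of both kinases was 264 ± 25.4 FPKM in gas and 214 ± 8.93 FPKM in dCAMP. CCNE2 made up 37.2, 44.8 and 51.1% of the E-type cyclins with gas and 52.0, 52.7 and 53.7% after dCAMP. These ratios use the same libraries and contrast that chose the members, and were not tested. CDK6 has a transcript of 10857 bases and CDK4 a mean of 1445, and the ratios were not corrected for the length trend. With that correction the log2 fold change of CDK6 was 0.31 in place of 0.54, and that of CCND2 0.29 in place of 0.51. The part of length in the ratios was not tested.

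The gas libraries differed from each other at the same genes. Against the mean log2 CPM of the dCAMP libraries, SPDYA lay at −2.35, −1.71 and −0.27 in gas 1, 2 and 3, and CCNG2 at −1.87, −1.22 and −0.46. CDK6 lay at −1.23, −0.67 and 0.03, and CCNE2 at −0.98, −0.70 and −0.16. CCND2 was at −0.77, −0.55 and −0.26. Of the genes above the dCAMP mean, CDK4 lay at 0.47, 0.31 and 0.21, and CCND3 at 0.43, 0.12 and 0.04. In these 7 genes gas 1 was the farthest from the dCAMP mean and gas 3 the nearest; for CDKN1B the nearest was gas 2, at 0.08.

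**Figure D4:**
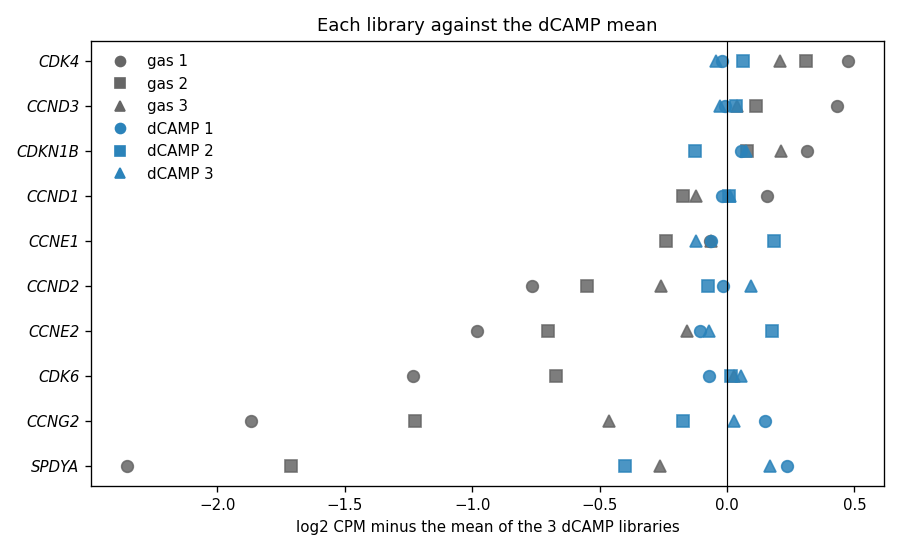
Log2 CPM of each library minus the mean of the 3 dCAMP libraries (x axis) for the 10 genes, with gas libraries in grey, dCAMP libraries in blue and a symbol for each library number. Gas 1 (grey circles) lies farthest from 0 for 8 genes, from −2.35 for SPDYA to 0.47 for CDK4, and gas 3 (grey triangles) is the nearest gas library for 9.

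Transcript length moved with the comparison across the whole table. When the genes tested were ordered by transcript length into 10 equal groups, the group with the shortest transcripts (927 bases or less) had a median log2 fold change of −0.086, and the one with the longest (5992 bases or more) had 0.22. Gas 1 lay 0.19 above the dCAMP mean in log2 CPM for the shortest group and 0.35 below it for the longest, and gas 3 lay within 0.04 of it in all 10 groups. CDK6 (10857 bases) and CCND2 (6585 bases) are in the longest group. When each library's trend on length was removed, CDK6 had a log2 fold change of 0.31 and CCND2 one of 0.29, both lower than without the correction by more than 1.5 times. CCNG2 (2170 bases), SPDYA and CCNE2 (1595 bases) kept values of 1.08, 1.22 and 0.61. For CDK4, with a mean transcript length of 1445 bases, the value was −0.30, and for CCND3 and CDKN1B −0.20 and −0.17. Among 8 genes of 885 to 2170 bases, the log2 fold changes without correction ran from −0.33 to 1.19. The part of RNA quality or library preparation in the length trend was not tested.

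**Figure D5:**
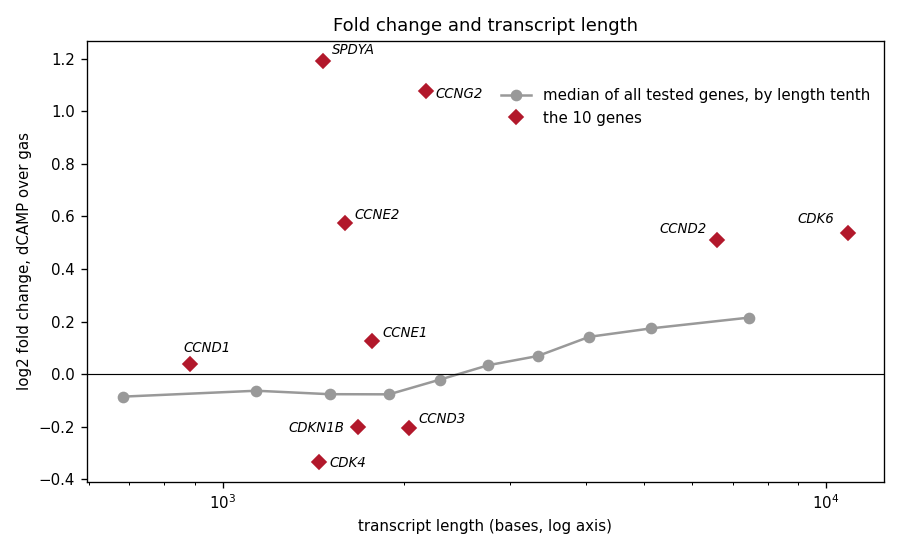
Log2 fold change of dCAMP over gas (y axis) against transcript length (bases, log axis) for the 10 genes (red), with the median of all tested genes in each of 10 groups by length (grey line). The grey line climbs from −0.086 to 0.22, and SPDYA, CCNG2 and CCNE2 lie above it at short lengths, while CDK4, CCND3 and CDKN1B lie below it.

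At the transcript level, CCND1, CCND2, CCNE1, CCNE2, CCNG2 and CDK6 each had 1 transcript. For CDK4, the 1446-base transcript XM_844780 held 99.4 to 99.6% of the counts in every library. The 2040-base transcript XM_859764 held 81.3 to 87.1% of the CCND3 counts in gas and 78.4 to 91.1% in dCAMP, so the groups overlapped. For CDKN1B, the 1744-base transcript XM_005636668 held 90.1, 88.5 and 99.7% in gas and 95.3, 98.5 and 93.9% in dCAMP, and the remainder was assigned to a 597-base transcript (coding length).

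SPDYA has 5 transcripts, which begin at different positions between 22708202 and 22714159. XM_003432179 (1657 bases) had 0, 2 and 29 counts with gas (libraries 1, 2 and 3), against 43, 38 and 21 after dCAMP. XM_022404600 (1241 bases) had 0, 17 and 27 counts in gas and 27, 3 and 44 in dCAMP. All 10 counts of gas 1 were assigned to XM_005630297 (1646 bases), which was listed at 0 in the other 5 libraries. The assignment thus differed between libraries of 1 group, and with these counts a change of transcript was not detectable.

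The gene with the most similar profile to each member was the one with the smallest Euclidean distance in log2 CPM over the 6 libraries, after centring each gene on its own mean. For CCNG2 it was ELOVL4, at a distance of 0.14, against a median distance of 1.84 to all genes tested. On the log2 of FPKM plus 1 the nearest gene was the same only for CCND3, CCNG2 and CDK4. ELOVL4 had 7.02, 12.2 and 19.1 CPM in gas and 30.0, 23.0 and 25.9 CPM in dCAMP. It was ZNF420 for SPDYA (0.15), PPP3CC for CCND2 (0.05), UBE2D3 for CDK6 (0.08) and TLL1 for CCNE2 (0.11). STIP1 was nearest to CDK4 (0.03), MED24 to CCND3 (0.02), TBC1D22B to CDKN1B (0.07), TSHZ1 to CCND1 (0.09) and RNF34 to CCNE1 (0.10). Among the 10 genes themselves, CDK4 and CCND3 were the closest pair (0.21), while CCNG2 and SPDYA, each other's nearest, were 0.70 apart.

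The other genes of the pathway were read from 7 lists, with the members left out. The list of cyclins and kinases also holds partner genes such as CABLES2 and MNAT1, and cyclins or kinases of mitosis and transcription. Of its 24 genes tested, 2 had an unadjusted p under 0.05 with higher and 3 with lower levels in dCAMP. Over all genes tested the shares were 6.81% and 13.9%. None had an adjusted p under 0.05. CCNJ had 3.41, 5.34 and 8.14 CPM in gas and 10.7, 8.98 and 8.87 CPM in dCAMP, a log2 fold change of 0.75, and CCNI had one of 0.40; without gas 1 these were 0.48 and 0.25. CABLES2 (−0.39) and CCNF, the F-box cyclin of G2 (−0.36), were lower. The median of the list was 0.20, and −0.011 without gas 1.

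The list of CDK inhibitors and their turnover also holds CDC25 phosphatases, WEE1, PKMYT1, CDC37 and HSP90AB1. Of its 25 genes, 1 was higher and 6 lower with an unadjusted p under 0.05, beside 6.81% and 13.9% of all genes. The median log2 fold change was −0.070. The 6 lower were PKMYT1, CDKN2D, TRIB3, CDC25B, CKS1B and HSP90AB1, with CDKN2D the only CDKN gene. Other CDKN genes, named after their values were seen, had −0.29 (CDKN2C), 0.014 (CDKN3), 0.041 (CDKN2A), 0.088 (CDKN1A) and 0.15 (CDKN2B). CDKN2D, which encodes the CDK4 and CDK6 inhibitor p19, had 17.3, 17.5 and 14.1 CPM in gas and 10.7, 11.1 and 9.60 CPM in dCAMP, a log2 fold change of −0.64 (SE 0.13). PKMYT1, an inhibitory kinase of CDK1, had one of −0.60. Their adjusted p-values, and those of the other genes named for the smallest p in each list, were 0.221 to 0.340 in edgeR. FBXW7, the ubiquitin ligase component that recognizes cyclin E, had 15.8, 27.2 and 28.6 CPM in gas and 37.3, 31.7 and 38.2 CPM in dCAMP, a log2 fold change of 0.58, and WEE1, another inhibitory kinase that did not pass an unadjusted p of 0.05, one of 0.83. Without gas 1 these were 0.34 and 0.49. The 7 lists together held 214 genes besides the members. Of these, 1 was called as lower at 2-fold or more and an unadjusted p below 0.05, against 0.136% of all genes. As higher, 1 was called, against 0.959% of all genes. The lower gene was TRIB3, a pseudokinase induced by amino acid and endoplasmic reticulum stress, named here after its values were seen, with a log2 fold change of −1.27. The higher gene was SESN3.

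The list of RB and E2F genes had 2 of 24 genes higher and 5 lower with an unadjusted p under 0.05, beside 6.81% and 13.9% of all genes. RBL2, the pocket protein of quiescent cells, had 46.0, 66.9 and 83.6 CPM in gas and 99.3, 96.0 and 104 CPM in dCAMP, a log2 fold change of 0.61 (SE 0.21), and of 0.39 without gas 1. MYBL2 and E2F4 had log2 fold changes of −0.54 and −0.49, and TFDP2, a partner of E2F, one of 0.39. The median of the list was 0.11, and −0.045 after the length correction.

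Of 43 E2F target genes of S phase, 18 had lower levels and 0 higher levels with an unadjusted p under 0.05, beside 13.9% and 6.81% of all genes, and the median log2 fold change was −0.11. MCM5 and MCM2, subunits of the replicative helicase, had log2 fold changes of −0.54 (SE 0.10) and −0.46 (SE 0.08). MCM5 had 303, 278 and 247 CPM in gas and 188, 195 and 185 CPM in dCAMP, and these did not overlap. FBXO5 and CDC7, which did not pass that p, had log2 fold changes of 0.80 and 0.60, and their gas 3 levels (20.1 and 52.1 CPM) lay within those of dCAMP. Without gas 1 their log2 fold changes were 0.40 and 0.29, and without gas 3 they were 1.34 and 1.08.

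Among 34 FOXO and PI3K regulators, 2 genes were higher and 3 lower with an unadjusted p under 0.05, beside 6.81% and 13.9% of all genes. The median log2 fold change of the list was 0.087, and −0.088 after the length correction. SESN3 and SESN1, sestrins that respond to FOXO factors or p53, had log2 fold changes of 1.07 and 0.66 (0.75 and 0.43 without gas 1), while SESN2, named here after its values were seen, had −0.36. After the length correction, SESN3 (9271 bases, in the longest group) had 0.86, which is below 2-fold. SESN1 then had 0.58 and SESN2 −0.50. SESN3 had 20.5, 36.8 and 60.6 CPM in gas and 83.5, 75.7 and 89.4 CPM in dCAMP. AKT1 and AKT2, kinases that inhibit FOXO factors, had log2 fold changes of −0.41 and −0.43. Other listed genes, named after their values were seen, had 0.45 (FOXO1), 0.081 (FOXO3) and −0.079 (FOXO4). BCL2L11, BCL6, GADD45A, KLF4 and TXNIP had 0.021, −0.0054, 0.10, 0.17 and 0.034. The activity of FOXO factors was not tested. Of 39 genes of mitogen input, 3 were higher, with CTNNB1 (0.39) and DUSP6 (0.41) named, and 4 lower, with MAP2K2 (−0.41) and HRAS (−0.48) named. Of 25 proliferation and mitosis genes, 3 of which are also in the list of cyclins and kinases, 0 were higher and 6 lower. For mitogen input and proliferation too, the shares over all genes were 6.81% higher and 13.9% lower. CDC20 and PLK1 had log2 fold changes of −0.60 and −0.42, and TTK and ANLN, which did not pass that p, 0.81 and 0.45. TTK had 7.67, 17.9 and 38.0 CPM in gas and 34.3, 39.6 and 37.3 CPM in dCAMP, with gas 3 among the dCAMP libraries. Without gas 1 the values of TTK and ANLN were 0.40 and 0.21, and without gas 3 they were 1.49 and 0.68. The median log2 fold change of this list was 0.11, with −0.098 without gas 1 and −0.016 after the length correction.

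The counts over the lists moved with single libraries, and so did the share of all genes at an unadjusted p under 0.05. Without gas 3, 23.8% of all genes were higher and 25.5% lower at that p. In the list of cyclins and kinases, 10 genes were then higher and 6 lower, and in that of CDK inhibitors and their turnover 2 and 9. The counts were 7 and 8 for RB and E2F, 4 and 18 for E2F targets, and 8 and 7 for FOXO and PI3K regulators. They were 8 and 11 for mitogen input and 7 and 6 for proliferation genes. The absence of higher genes among E2F targets and proliferation genes thus did not hold without gas 3. Without gas 1, where 8.75% of all genes were higher and 11.8% lower, 0 E2F targets were higher and 20 lower. The list of cyclins and kinases then had 4 higher and 5 lower genes, and that of proliferation genes 0 and 7.

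Leaving out any of the other 4 libraries gave equal or smaller counts. Over all genes, 2.43% were higher and 5.82% lower without gas 2, 2.48% and 5.75% without dCAMP 1, 3.04% and 6.57% without dCAMP 2, and 2.16% and 4.7% without dCAMP 3. In these fits 0 E2F targets were higher, and 10, 10, 16 and 7 of 43 were lower. Of the proliferation genes 0 were higher and 2 to 5 lower, and in the list of cyclins and kinases 0 were higher and 0 to 2 lower. The other lists had 0 or 1 (CDK inhibitors, RB and E2F and FOXO) or 1 or 2 (mitogen input) higher genes, and lower genes numbered 5 or 6 for the CDK inhibitors, 5 for RB and E2F, 1 or 2 for FOXO and 0 to 2 for mitogen input.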

How the data were processed

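Per the submitters' notes and the study's methods, the authors trimmed reads with Trimmomatic 0.38, mapped them to CanFam3.1 with HISAT2 2.1.0 and summarized known transcripts with StringTie 2.1.3b. Deposited read counts, whole numbers for each gene and transcript, carry no normalization. For FPKM the authors scaled these to transcript length and mapped reads. The deposited TPM values were not used. The annotation release is not given in the sources used here.

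Counts were analysed with R 4.3.3 and edgeR 4.0.16: filterByExpr, TMM factors, a prior count of 2, the quasi-likelihood test and Benjamini-Hochberg adjustment over 14708 genes. The standard error is the size of the log2 fold change over the square root of F. CPM uses TMM-scaled library sizes. Alternatives used DESeq2 1.42.0 and limma 3.58.1. The fits were tested on simulated data. Length is the count-weighted mean transcript length; the correction removed a lowess trend (span 0.3) per library.

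Members and lists were chosen with earlier results of these data known. In each list, the 2 higher and 2 lower genes with the smallest p were named, and for each member the gene with the nearest profile.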

Additional observations from a re-analysis of the deposited data

How the results depend on the processing

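The 8 members not drawn in the heatmap kept their direction under the 11 alternatives, except CCND1, which had a log2 fold change of −0.056 with upper-quartile factors. Without 1 library, CCND1 also had −0.055 (without gas 2), −0.049 (without gas 3) and −0.0011 (without dCAMP 3). The cause was not tested. Among the members, counting error is largest for SPDYA, which has the fewest counts. Its gas libraries differed by more than that error, with Poisson intervals up to 0.397 CPM in gas 1 and from 0.797 CPM in gas 3.

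The members called under any alternative were CCNG2 and SPDYA, the genes chosen from this contrast, so their counts are a description. The number called at 2-fold or more and an unadjusted p below 0.05 was 1, and 2 with DESeq2, voom with sample quality weights, the log2 of FPKM plus 0.1, the replicate block and the length correction with the block; it was 0 on the log2 of FPKM plus 1, and 0 to 2 without 1 library (0 without gas 1, gas 2 or dCAMP 1, and 2 without gas 3). An adjusted p below 0.05 was found for 0 members, and for 8 with voom and 0 to 6 without 1 library. Without CCNG2 and SPDYA these were 6 (all but CCNE1 and CDKN1B) and 0 to 4. Over all genes, 8944 of 14708 had one with voom, and 33.1% had one without gas 3, so nothing is read from these counts. The median log2 fold change of the members was 0.20 to 0.36 without 1 library with CCNG2 and SPDYA, and −0.0060 to 0.13 without them.

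For all genes, the 161 called were 369 with DESeq2, 281 without a filter (215 higher, 66 lower), 440 with the replicate block, 1010 with voom, 373 on the log2 of FPKM plus 0.1 and 473 with the length correction and block, and 134 to 1521 without 1 library, highest without gas 3. The split of 141 higher and 20 lower became 148 and 1 on the log2 of FPKM plus 1. The adjusted p was under 0.05 for 0 genes (3040 at an unadjusted p under 0.05), 301 with DESeq2, 8944 with voom, 3 on the log2 of FPKM plus 0.1, and 0 to 4953 without 1 library.

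Of the genes of the 7 lists, 2 were called, against 7 with the replicate block, 12 with voom, 5 on the log2 of FPKM plus 0.1, 1 with the length correction, 7 with it and the block, and 1 to 23 without 1 library. Those with an adjusted p under 0.05 numbered 0, 14 with DESeq2, 140 with voom and 0 to 80 without 1 library. The median of the CDK inhibitor list was −0.070. It was −0.085 with DESeq2, −0.080 with RLE factors, −0.16 with upper-quartile factors, −0.078 without a filter, −0.094 with at least 10 counts in every library, −0.13 with voom, −0.046 and −0.058 on the log2 of FPKM plus 1 and plus 0.1, −0.21 with the length correction and −0.21 with it and the block. The length correction moved the RB and E2F list to −0.0446 (−0.0449 with the block), the FOXO list from 0.087 to −0.088 (also with the block) and the mitogen list from 0.021 to −0.11 (also with the block). The FOXO list was at 0.0038 with upper-quartile factors and 0.16 with voom, and the mitogen list at −0.072 with upper-quartile factors. Without 1 library, the medians were −0.17 to −0.070 (CDK inhibitors), −0.21 to −0.078 (E2F targets), 0.0087 to 0.084 (FOXO), −0.011 to 0.34 (cyclins and kinases), −0.076 to −0.0077 (mitogen input), −0.098 to 0.25 (proliferation) and 0.047 to 0.14 (RB and E2F).

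The same replicate numbers occur in both groups. Deviations from the group means correlated across genes at 0.13, 0.024 and 0.048 between same-numbered libraries. Between libraries of different number they correlated at −0.14 to 0.087. The labels do not say whether same-numbered libraries were paired, and correlations this small, from 3 libraries in each group, cannot decide it. The replicate block changed the counts above and the direction of no member.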
